A study of Rattus norvegicus with 32 samples.

Results

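Calponin 1 (Cnn1), transgelin (Tagln), smooth muscle myosin heavy chain (Myh11), gamma-2 actin (Actg2), alpha-2 actin (Acta2) and tropomyosin 1 (Tpm1) were followed across the normal mammary glands of 6 groups of rats. These genes were chosen by symbol, as the contractile genes of myoepithelial and smooth muscle cells, and every probe set annotated to one of the symbols alone was taken. Of the 8799 probe sets on the array, which name 4737 genes where they carry a single symbol, 15 qualified: 1 for Cnn1, 2 for Tagln, 3 for Myh11, 1 for Actg2, 3 for Acta2 and 5 for Tpm1. A further 4 probe sets were annotated to both Acta2 and the cardiac actin gene Actc1 and were left out.

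The groups were 5 inbred strains, labelled WF, BUF/N, ACI, F344 and Cop, and a Cop by F344 hybrid (F1), all of them untreated as far as the labels say. Each group had 5 arrays, made from total RNA of whole gland, and 1 Cop pool and 1 F344 pool were run besides. The series asks what underlies the inherited differences in mammary cancer risk among rat strains, and Cop is known as a resistant strain. The labels give neither age nor sex, and leave unsaid whether replicates came from separate animals. The p-values below therefore reflect the spread between these samples, which may be technical.

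Myoepithelial cells form the outer layer of mammary ducts and alveoli and squeeze milk out when oxytocin reaches them. They do so with the machinery of smooth muscle, in which myosin made of Myh11 pulls on filaments of the actins Acta2 and Actg2, tropomyosin lies along these filaments, and calponin and transgelin bind to them. Vascular smooth muscle cells in the gland carry the same genes, and tropomyosin 1 is also made in skeletal muscle through other splice forms. In whole gland, fewer cells of a type and less RNA per cell cannot be told apart.

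The upstream sequence is shown for 3 of the genes because serum response factor binding at CArG boxes is a textbook control of smooth muscle actin and calponin genes, and because these genes differed in how they varied among the groups. Sequences are RefSeq's, from the GRCr8 rat build, and are given in the direction of the gene up to the base before its start. Capitals mark CArG-like matches, sought on both strands as CC, 6 bases of A or T and GG, with at most 1 of the 6 inner bases being C or G.
Acta2, chr1:241172504-241172753, minus strand: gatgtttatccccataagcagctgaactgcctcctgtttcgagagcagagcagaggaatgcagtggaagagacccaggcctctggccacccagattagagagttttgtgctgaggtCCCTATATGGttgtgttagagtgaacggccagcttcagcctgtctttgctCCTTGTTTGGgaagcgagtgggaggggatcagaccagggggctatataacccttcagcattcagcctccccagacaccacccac
Actg2, chr4:117594040-117594289, minus strand: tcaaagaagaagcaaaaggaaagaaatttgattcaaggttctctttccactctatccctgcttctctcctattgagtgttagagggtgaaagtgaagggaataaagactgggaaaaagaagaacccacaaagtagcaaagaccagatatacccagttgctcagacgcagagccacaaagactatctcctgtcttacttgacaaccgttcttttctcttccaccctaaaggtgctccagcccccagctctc
Cnn1, chr8:28908187-28908436, plus strand: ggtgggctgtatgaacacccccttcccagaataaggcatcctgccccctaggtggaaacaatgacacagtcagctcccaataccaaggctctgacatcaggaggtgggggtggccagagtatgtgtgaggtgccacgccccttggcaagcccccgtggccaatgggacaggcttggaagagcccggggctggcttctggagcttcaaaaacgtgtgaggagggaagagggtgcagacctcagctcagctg
The Acta2 window held 2 such matches, CCCTATATGG at 134 to 125 bases and CCTTGTTTGG at 84 to 75 bases before the start. The windows of Actg2, Cnn1 and Tpm1 held none. Sequence outside these 250 bases, introns included, was not searched. Among 33469 rat windows of 250 bases, 8.08% held at least 1 such match and 1.5% held 1 with all 6 inner bases A or T. Of the 6 genes, 4 were found in the sequence table. A match is a description of letters, and no binding was measured.

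All 6 genes were well detected. Signals are the linear values deposited for each probe set, and a probe set was tested where at least 5 of the 30 arrays exceeded the overall median signal of 78.4. This held for 13 of the 15. Of these, 11 exceeded the median on all 30 arrays, Tpm1 X02412_at on 26 and Myh11 S61948_s_at on 8. None of those 8 was a Cop or F344 array, so S61948_s_at entered the tests only through the other groups. The untested ones were Myh11 X16261_i_at, at or under the floor of 18.3 on 29 arrays, and Tpm1 rc_AI144767_s_at, with a mean signal of 34.4 and no array above the median. Levels of different probe sets are not comparable with each other, and those ending in _s, _f, _g or _i may, by Affymetrix's naming, also bind related transcripts or hold fewer specific probes.

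Arrays of 1 group correlated with r = 0.846 to 0.978 over the tested probe sets, which are not independent replicates. F1 2, F1 3, ACI 2 and ACI 5 stood apart from the rest of their groups, and the calls lost without these 4 are given both ways. Of the basal keratins that accompany the contractile genes in myoepithelial cells, Krt5 averaged 716 ± 487 in Cop and 1697 ± 344.01 in WF, and Krt14 516 ± 286 and 1342 ± 356 (SD, n = 5). The oxytocin receptor gene Oxtr, listed with them as a basal marker, lay the other way, at 439 ± 116 in Cop and 269 ± 89.1 in WF. It was called in neither strain. No basal or luminal marker on the array was at the floor on more than 15 arrays. The endothelial marker Vwf was, as were Myh2 and Myl3 among the skeletal muscle markers.

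Differences among the 6 groups were tested with limma, and adjusted p-values are Benjamini-Hochberg values over all 5039 tested probe sets. Of the 13 contractile probe sets, 10 passed the F test at 0.05, against 51.8% of all tested probe sets. The 10 include Myh11 S61948_s_at (adjusted p = 0.00404). It entered the tests only through groups other than Cop and F344, so its pass adds no support. The smallest adjusted p-values were 5.55e-07 for Actg2, 1.63e-06 for Cnn1 and 4.91e-06 for Tagln M83107_at. The 3 that did not pass were Acta2 X06801cds_f_at (0.201), Tpm1 M34134_s_at (0.276) and Tpm1 M15474cds_s_at (0.224).

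**Figure D1:**
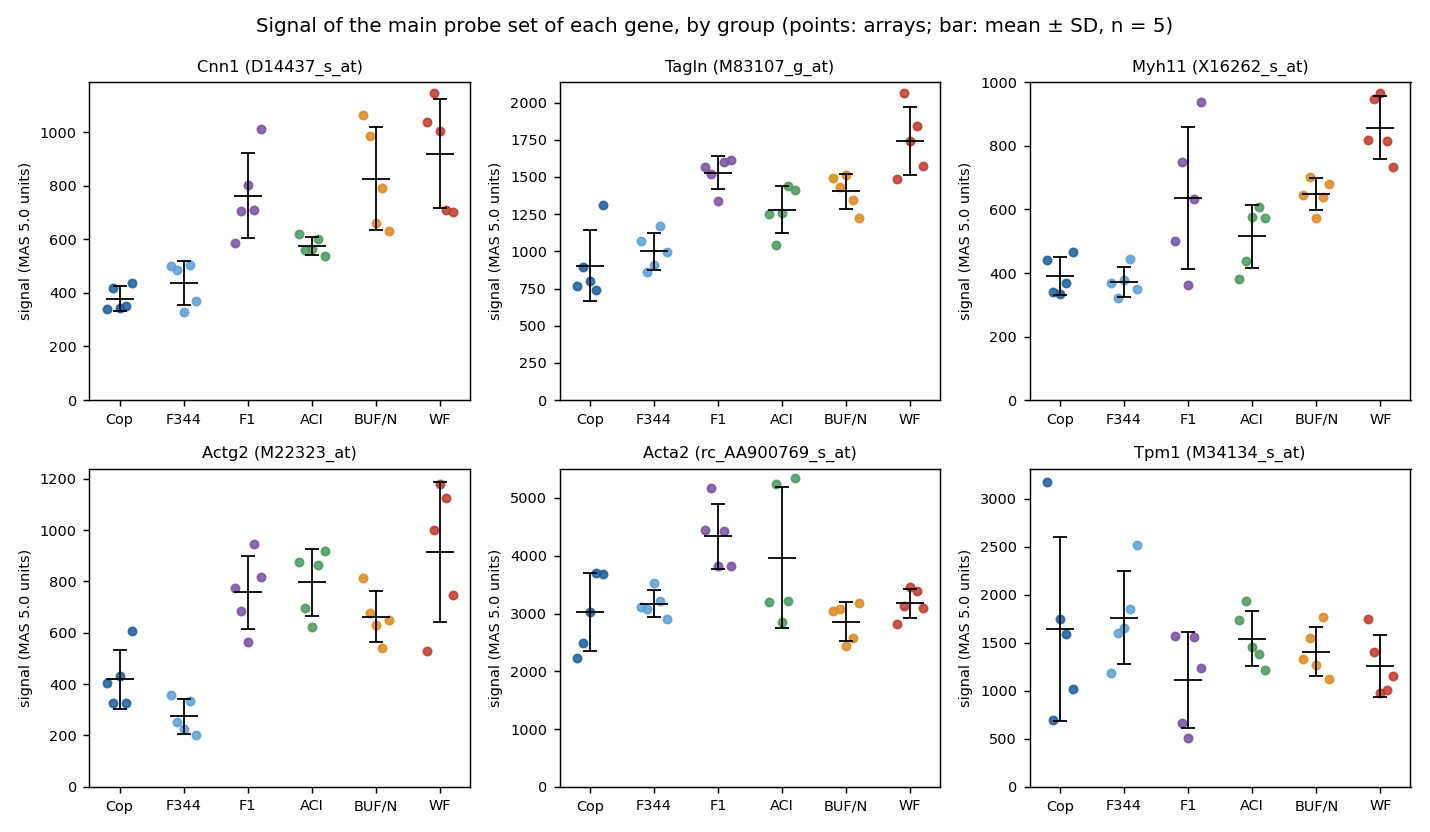
Deposited signal (linear scale, starting at 0) of the brightest probe set of each gene, by group; points are the 5 arrays of a group, and the bar with whiskers is the mean ± SD. The Cop and F344 arrays of Cnn1, Tagln, Myh11 and Actg2 lie low and those of WF high, whereas Acta2 is highest in F1 and in 2 ACI arrays, and Tpm1 M34134_s_at overlaps among all groups.

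Cnn1, an actin-binding protein that restrains myosin's motor and a marker of mature contractile cells, was lowest in Cop and highest in WF. Its signals on the 5 Cop arrays were 341, 418, 343.5, 350.4 and 438, and on the 5 F344 arrays 502, 485, 328, 504 and 368. The WF arrays read 1039, 1144, 1003, 709.5 and 703, and those of BUF/N 1063, 984, 660.1, 790.2 and 631. Every BUF/N and WF array was above every Cop and F344 array. ACI was narrow and intermediate, with 620.1, 559, 562, 599.6 and 539, and F1 read 587, 706, 803, 711 and 1009. The means were 378 ± 46.1 in Cop, 437 ± 83.0 in F344, 576 ± 33.1 in ACI, 763 ± 157 in F1, 826 ± 192 in BUF/N and 919.7 ± 202 in WF (SD, n = 5). In that ascending order no neighbouring groups differed by the test, the closest being ACI and F1 (adjusted p = 0.0887). Cnn1 was 1.73-fold lower in Cop than in the mean of the other 4 inbred strains (log2 difference -0.79, SE 0.14, adjusted p = 0.000158), 1.46-fold lower in F344 (log2 difference -0.55, SE 0.14, adjusted p = 0.00759), 1.5-fold higher in BUF/N (log2 difference 0.59, SE 0.14, adjusted p = 0.00325) and 1.72-fold higher in WF (log2 difference 0.78, SE 0.14, adjusted p = 0.000268). Folds here and below are between means of log2 signal. The F344 call was lost without F344 3 (adjusted p = 0.051) and when each array was centred on its median (0.057).

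Tagln, another actin-binding protein that is abundant in smooth muscle, followed the same order in its brighter probe set, M83107_g_at, except that F1 stood above BUF/N. Cop arrays read 769, 892, 802, 741 and 1314, and F344 arrays 1068, 859, 911, 1170.1 and 999. WF arrays read 1489, 2066, 1744, 1839.5 and 1574, BUF/N arrays 1492, 1435, 1512, 1346 and 1224 and ACI arrays 1248, 1044, 1256, 1439.6 and 1414. Cop 5 lay within the range of the ACI and BUF/N arrays, while the other 4 Cop arrays were below all arrays of WF, BUF/N, ACI and F1. Relative to the other inbred strains the probe set was 1.5-fold lower in Cop (log2 difference -0.58, SE 0.11, adjusted p = 0.00036) and 1.55-fold higher in WF (log2 difference 0.63, SE 0.11, adjusted p = 0.000231). It was also lower in F344 (log2 difference -0.37, SE 0.11, adjusted p = 0.0231), a call that was lost without F344 2 (adjusted p = 0.095), F344 3 (0.084) or F344 5 (0.066), with centring (0.24) and with the skeletal muscle level as a covariate (0.14). The second probe set of the gene, M83107_at, had means of 815 in Cop, 936 in F344, 1179.9 in F1, 845 in ACI, 1427 in BUF/N and 1535 in WF. It was lower in Cop (log2 difference -0.50, SE 0.11, adjusted p = 0.00261), higher in BUF/N (log2 difference 0.52, SE 0.11, adjusted p = 0.00159) and higher in WF (log2 difference 0.65, SE 0.11, adjusted p = 0.000216). The probe sets parted in ACI: M83107_at was lower there than in the other inbred strains (log2 difference -0.42, SE 0.11, adjusted p = 0.0159), and M83107_g_at was not called (log2 difference 0.08, adjusted p = 0.702). That ACI call was lost without ACI 2 (adjusted p = 0.10) or ACI 5 (0.051) and without the 4 arrays that stood apart (0.14).

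Myh11 encodes the myosin heavy chain found in smooth muscle and in myoepithelial cells. Its brightest probe set, X16262_s_at, read 818, 949, 968, 816 and 734 on the WF arrays, the lowest of which was above every array of the other inbred strains. BUF/N arrays read 645, 703, 574, 640.5 and 681, and ACI arrays 382, 438, 576, 608 and 572. Cop arrays read 439.9, 339, 334, 369.8 and 465.9 and F344 arrays 367, 320.5, 378, 444 and 349, all of them below every BUF/N array. The F1 arrays were widely spread, at 502, 749.5, 361, 633 and 939. The gene was 1.83-fold higher in WF than in the other inbred strains (log2 difference 0.87, SE 0.14, adjusted p = 0.000135), 1.55-fold lower in F344 (log2 difference -0.63, SE 0.14, adjusted p = 0.0039) and 1.47-fold lower in Cop (log2 difference -0.55, SE 0.14, adjusted p = 0.00932). A dimmer Myh11 probe set, S61948_s_at, read 31.1, 24, 26.2, 7.0 and 28.3 in Cop, where 1 array was under the floor, and 55.0, 85.4, 82.2, 66.7 and 80.9 in ACI. It averaged 40.04 in F344, 64.0 in F1, 85.2 in BUF/N and 84.96 in WF. It was lower in Cop than in the other inbred strains (log2 difference -1.38, SE 0.32, adjusted p = 0.00403), which was lost with a floor at the 40th percentile (adjusted p = 0.072).

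Actg2, the gamma actin of visceral smooth muscle, had its lowest signals in F344, with Cop next. F344 arrays read 356, 254, 227, 336 and 201 and Cop arrays 405, 327, 429.7, 326 and 606. ACI arrays read 874, 698, 621, 866 and 919.7, BUF/N arrays 815, 675, 632, 541 and 649 and WF arrays 529, 998, 1177, 1126 and 745. All F344 arrays were below all arrays of ACI, BUF/N, WF and F1, whereas Cop 5 overlapped with BUF/N and WF arrays. Means ran from 275 ± 68.0 in F344 and 419 ± 114 in Cop to 662 ± 99.1 in BUF/N, 757 ± 142 in F1, 796 ± 129 in ACI and 915 ± 273 in WF (SD, n = 5). BUF/N over Cop (log2 difference 0.69, adjusted p = 0.0161) was the only step between neighbouring groups that passed the test for any tested contractile probe set, and with centring it had adjusted p = 0.055. Actg2 was 2.45-fold lower in F344 than in the other inbred strains (log2 difference -1.29, SE 0.16, adjusted p = 2.53e-06), 1.80-fold higher in WF (log2 difference 0.85, SE 0.16, adjusted p = 0.00117) and 1.57-fold higher in ACI (log2 difference 0.65, SE 0.16, adjusted p = 0.0118). It was 1.45-fold lower in Cop (log2 difference -0.53, SE 0.16, adjusted p = 0.0303). The Cop call was lost without Cop 1 (adjusted p = 0.077), Cop 2 (0.12) or Cop 4 (0.12), without a filter on dim probe sets (0.052) and with centring (0.095). The ACI call was lost without ACI 5 (0.059), without the 4 arrays that stood apart (0.070) and with centring (0.060).

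Acta2, the smooth muscle alpha actin most used as a myoepithelial marker, did not share this order. Its brightest probe set, rc_AA900769_s_at, read 2226, 2497, 3032, 3704 and 3679.9 in Cop, 3105, 3072, 3531, 3217 and 2904 in F344, 3038, 3078, 2429, 2574 and 3188 in BUF/N and 2822, 3124, 3466, 3382 and 3089.6 in WF. These 4 strains overlapped throughout. ACI arrays fell in 2 sets, 3207, 5236, 2847, 3210.3 and 5344, the high ones being ACI 2 and ACI 5. The ratio of the array's 3' to 5' beta-actin control signals, a sign of RNA quality, was 1.78 in ACI 2 and 1.80 in ACI 5 and 1.19 to 1.34 on the other ACI arrays, and its part in the Acta2 values was not tested. No inbred strain was called against the other 4, but ACI was under quantile normalization (adjusted p = 0.0374). The log2 difference was -0.12 for Cop (95% interval -0.38 to 0.13), -0.01 for F344 (-0.27 to 0.25), -0.00 for WF (-0.26 to 0.25), -0.20 for BUF/N (-0.45 to 0.06) and 0.34 for ACI (0.08 to 0.59, adjusted p = 0.0918). The interval for WF lies below the log2 differences of Cnn1, Tagln, Myh11 and Actg2 in that strain.

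The coding-sequence probe sets of Acta2 behaved differently again. X06801cds_i_at read 4032, 4281, 1518, 1901 and 1395 in BUF/N and 4985, 3806, 1777, 1124 and 1535 in WF, with BUF/N 1, BUF/N 2, WF 1 and WF 2 high. It read 853, 727, 619, 988 and 771 in F344, and was lower there than in WF (log2 difference -1.53, adjusted p = 0.0391) and than in BUF/N (-1.58, 0.0207). The BUF/N call was lost without BUF/N 1 (adjusted p = 0.057) or BUF/N 2 (0.058), and the WF call without any 1 of 7 arrays, among them WF 1 (0.13) and WF 2 (0.098), and with centring (0.060). X06801cds_f_at, whose suffix marks a family of similar sequences, tracked it with r = 0.915 over the 30 arrays after the group means were subtracted. These 2 probe sets moved with the array's beta-actin control. How far they bind other actins was not tested. For X06801cds_f_at the correlation with the 3' beta-actin control over the 30 arrays, after subtracting group means, was r = 0.724 (within-group permutation p = 0.00159, adjusted over 39 relations 0.0124) and rho = 0.729 (permutation p = 0.00075, adjusted 0.00731), with r = 0.592 when F1 2 and F1 3 were left out. For rc_AA900769_s_at it was r = -0.20 (permutation p = 0.231, adjusted 0.41) and rho = -0.36 (permutation p = 0.0519, adjusted 0.135). The control read 4433 in F1 2 and 4498 in F1 3, against 5431 to 8640 in the inbred strains, and X06801cds_f_at read 498 and 522 on those F1 arrays. The part of this control level in the Acta2 values was not tested. X06801cds_f_at also moved with skeletal muscle markers, as given below.

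**Figure D2:**
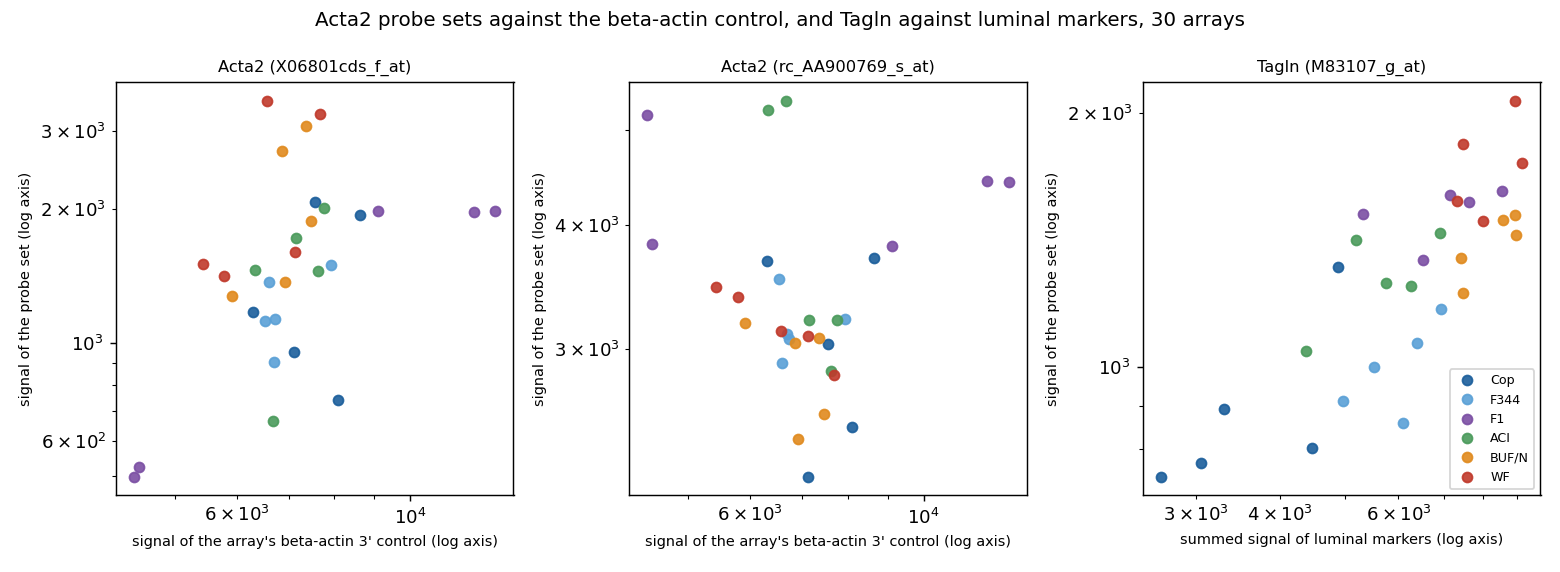
Both axes are logarithmic and each point is 1 of the 30 arrays, coloured by group. Acta2 X06801cds_f_at rises with the signal of the 3' beta-actin control and is lowest in the F1 arrays with the lowest control, Acta2 rc_AA900769_s_at does not rise with it, and Tagln M83107_g_at rises with the summed signal of luminal epithelial markers.

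Tpm1, the tropomyosin that lies along actin filaments in smooth, cardiac and skeletal muscle, had probe sets of opposite behaviour. M60666_s_at followed Cnn1 and Tagln. Its signals were 630.5, 859, 1224, 767 and 1181 in Cop, 1173, 975, 760.3, 1121 and 885 in F344 and 1715, 2391, 2466, 1866 and 1538 in WF. All WF arrays were above all Cop and F344 arrays. BUF/N arrays read 1269, 1337, 1595, 1344 and 1366, ACI arrays 2204, 1338, 1442, 1748 and 1149 and F1 arrays 1324, 1726, 2750.4, 1267 and 1788. It was 1.68-fold higher in WF than in the other inbred strains (log2 difference 0.75, SE 0.16, adjusted p = 0.00367) and 1.57-fold lower in Cop (log2 difference -0.65, SE 0.16, adjusted p = 0.00704), the latter lost without Cop 1 (adjusted p = 0.059). The F344 difference (log2 difference -0.52, SE 0.16, adjusted p = 0.0319) was lost without F344 2 (adjusted p = 0.071), F344 3 (0.14) or F344 5 (0.11), without a filter (0.058), with centring (0.18) and with the skeletal muscle covariate (0.24).

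Tpm1 X02412_at varied widely within groups. It read 2222, 42.2, 898, 1196 and 214 in Cop and 826, 929, 983, 1129.6 and 1899 in F344. ACI arrays read 859.9, 1143, 679, 514 and 237, BUF/N arrays 471, 486, 105, 653 and 107, WF arrays 93.8, 863, 59.5, 202 and 62.2 and F1 arrays 255, 159, 36.8, 216 and 91.2. All F344 arrays were above all F1 and BUF/N arrays, and the other groups overlapped. These signals moved with skeletal muscle markers: after subtracting group means, the correlation with the summed signal of 19 such markers on the array was r = 0.951 over the 30 arrays and rho = 0.924 (each permutation p = 1e-05, the smallest that 100000 permutations can give, adjusted 0.00039), and r = 0.937 without Cop 2 and WF 2. For M34134_s_at it was r = 0.694 (permutation p = 0.00026, adjusted 0.00507) and rho = 0.649 (permutation p = 0.00068, adjusted 0.00731), with r = 0.659 without Cop 2 and WF 2. For M60666_s_at it was r = -0.22 (permutation p = 0.304, adjusted 0.467) and rho = -0.20 (permutation p = 0.325, adjusted 0.508). Acta2 X06801cds_f_at gave r = 0.508 (permutation p = 0.00953, adjusted 0.0413) and rho = 0.494 (permutation p = 0.0154, adjusted 0.0548). Its r was 0.418 without Cop 2 and WF 2. Cnn1, Actg2 and both Tagln probe sets had r between -0.10 and 0.05 and rho between -0.15 and 0.06 with the same markers (permutation p for r adjusted over the 39 relations 0.891 to 0.994). M34134_s_at, the brightest Tpm1 probe set, had means from 1108 ± 501 in F1 to 1762 ± 488 in F344 (SD, n = 5), and M15474cds_s_at from 1112 ± 533 in Cop to 1724 ± 504 in WF. The summed muscle signal ran from 944 to 25829 in Cop, 5612 to 28534 in F344, 474 to 3745 in F1, 2478 to 13892 in ACI, 947 to 7332 in BUF/N and 827 to 10230.4 in WF.

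**Figure D3:**
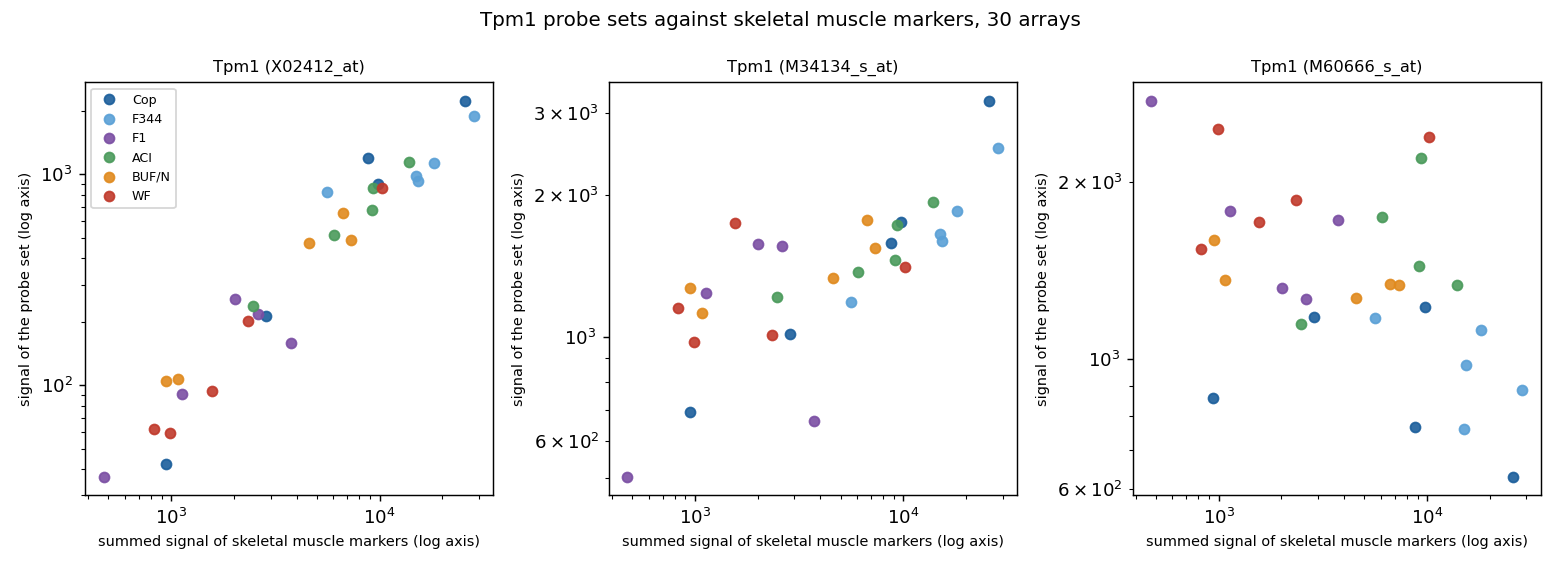
Both axes are logarithmic, and each point is 1 of the 30 arrays, coloured by group, with the summed signal of 19 skeletal muscle markers on the horizontal axis. Tpm1 X02412_at climbs with the muscle markers over the whole range (r = 0.951 within groups), M34134_s_at climbs less steeply (r = 0.694), and M60666_s_at does not climb (r = -0.22).

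Cop and F344, the parents of F1, were called different in none of the 13 tested contractile probe sets (limma), against 3.45% of all tested probe sets called in either direction. With array weights, and with the pools as sixth samples, 1 was called higher in Cop. The differences, as Cop minus F344 on the log2 scale with 95% intervals, were -0.20 (-0.54 to 0.15) for Cnn1, -0.17 (-0.45 to 0.11) for Tagln M83107_g_at and 0.06 (-0.31 to 0.43) for Myh11 X16262_s_at. For Actg2 the difference was 0.61 (0.18 to 1.03, adjusted p = 0.122), with Cop higher. The pools gave the same order for Actg2, at 408 in the Cop pool and 247 in the F344 pool, and for Cnn1, at 301 and 392.3. A missing call does not show that the parents were alike.

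Set against the mean of the other 4 inbred strains, calls were in 1 direction in Cop, F344 and WF. In Cop, 7 of 13 were lower and none higher, with a median log2 difference of -0.53, where 6.21% of all tested probe sets were lower. These 7 include Myh11 S61948_s_at, which entered the tests only through groups other than Cop and F344, so its call adds no support. F344 had 5 lower and none higher (7.92% lower among all). With centring 2 of these 5 were kept, Myh11 X16262_s_at and Actg2, and the count was 2 without F344 3, 3 without F344 2 or F344 5 or with the muscle covariate, and 8 with array weights. In WF, 6 were higher and none lower, with a median of 0.65, where 3.37% of all tested were higher. The 7 not called in WF included Acta2 rc_AA900769_s_at (-0.00), Tpm1 M34134_s_at (-0.30) and Tpm1 X02412_at (-1.92). In BUF/N, 2 were higher (8.43% of all), and 5 were without F1 2, F1 3, ACI 2 and ACI 5 or with array weights, and 4 without F1 5. In ACI 1 was higher (4.23%) and 1 lower (4.35%), neither of which was called without those 4 arrays. Medians over all tested probe sets in these contrasts lay between -0.05 and 0.06. The contrasts share arrays, since each strain is part of the mean that the others are set against, so the lower values in Cop and the higher ones in WF are not separate findings.

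**Figure D4:**
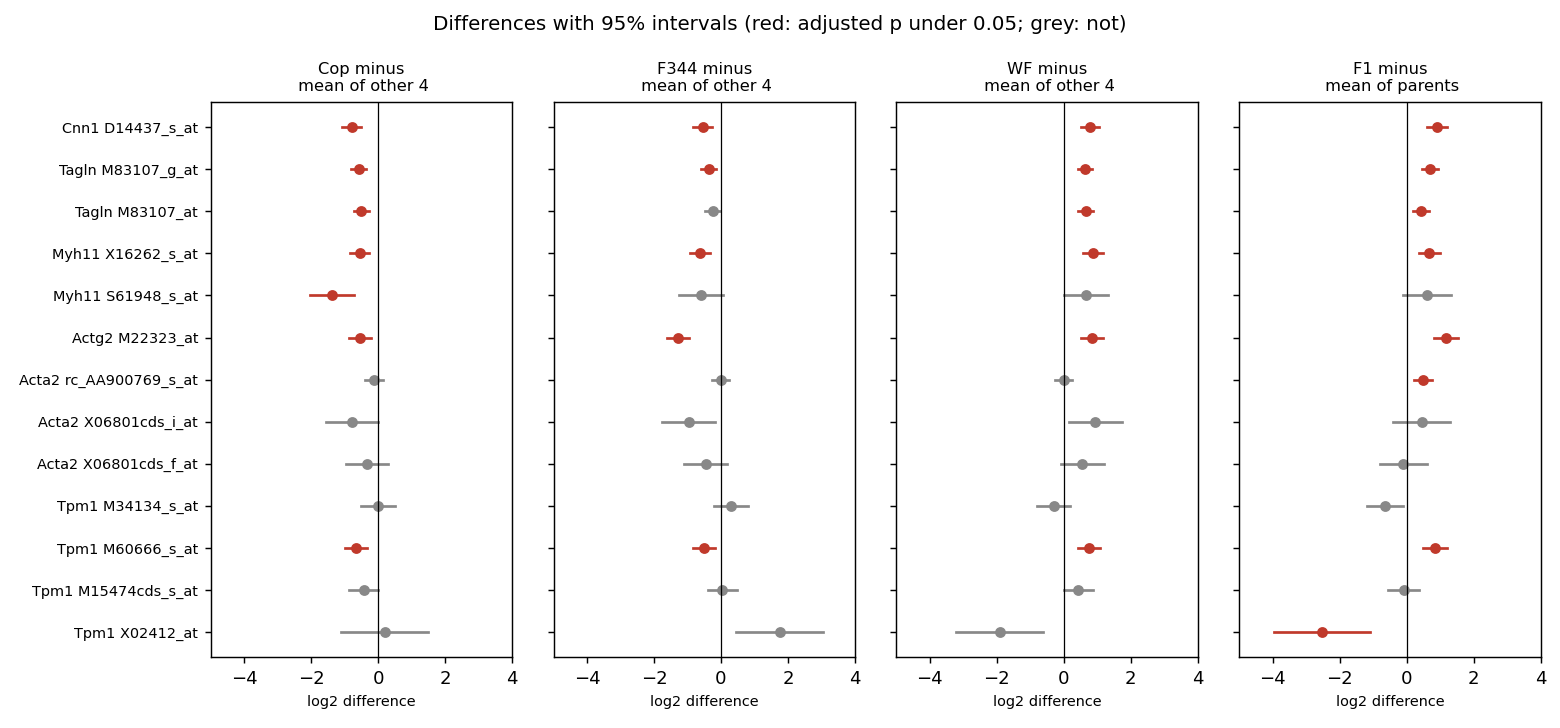
Log2 differences of the 13 tested contractile probe sets with 95% intervals, for Cop, F344 and WF against the mean of the other 4 inbred strains and for F1 against the mean of its parents; red points passed an adjusted p of 0.05 and grey ones did not. Cnn1, both Tagln probe sets, Myh11 X16262_s_at, Actg2 and Tpm1 M60666_s_at lie left of 0 in Cop and right of 0 in WF and F1, while Acta2 rc_AA900769_s_at is at 0 in WF and right of 0 in F1.

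Pair by pair, the same split appeared. Of the 13 probe sets, 5 were lower in Cop than in ACI (4.31% of all tested), 8 than in BUF/N (12.2%), 7 than in WF (7.22%) and 7 than in F1 (13.3%). Myh11 S61948_s_at, which entered the tests only through groups other than Cop and F344, is counted against ACI, BUF/N and WF. It is also in the F344 count against BUF/N below, with adjusted p = 0.0491, a call kept in 8 of the 30 fits without 1 array. Over the other fits the Cop count against BUF/N ran from 6 to 8, and that of F344 from 5 to 9. The 5 of Cop against ACI fell to 2 with centring, where Cnn1 (adjusted p = 0.15), Tagln M83107_g_at (0.20) and Tpm1 M60666_s_at (0.13) were lost, and to 2 without Cop 1. In the fit of the compared arrays alone they fell to 3, and the 7 against F1 to 4. In F344, 2 were lower than in ACI (8.2%), 7 than in BUF/N (13.3%), 7 than in WF (6.77%) and 6 than in F1 (16.3%), and Tpm1 X02412_at was higher than in WF (4.56% of all tested were higher) and than in F1 (15.4%), neither of them called with the muscle covariate (adjusted p = 0.97 and 0.93). The WF call of this probe set was also lost without F344 5 (0.051) or WF 3 (0.054). The 2 against ACI were 1 with centring or the muscle covariate or without F344 2, F344 3, F344 5 or ACI 4, and 5 with array weights. Relative to both Cop and F344, 6 of 13 were higher in WF, where 2.88% of all tested probe sets were: Cnn1, both Tagln probe sets, Myh11 X16262_s_at, Actg2 and Tpm1 M60666_s_at. In these 6 every WF array was above every Cop and F344 array, except for Actg2, where Cop 5 overlapped. The 6 were picked by those calls, and the share over all tested probe sets was not counted, so this separation adds no support. Among the other 4 groups calls were few. ACI was lower than WF in 4 (3.69% of all), namely Cnn1, both Tagln probe sets and Myh11 X16262_s_at, and lower than BUF/N in Tagln M83107_at alone (6.31%). Without F1 2, F1 3, ACI 2 and ACI 5 the 4 fell to 2, Cnn1 (adjusted p = 0.081) and Tagln M83107_g_at (0.13) being lost, and they fell to 2 also without WF 2 (0.059 and 0.13). The Tagln M83107_g_at call (adjusted p = 0.0424) was kept in 23 of the 30 fits without 1 array. F1 was higher than ACI in Tagln M83107_at (12.4%), lower than ACI in Tpm1 X02412_at (16.7%) and higher than BUF/N in Acta2 rc_AA900769_s_at (7.6%), the last of which was lost under quantile normalization (adjusted p = 0.12). With centring, 5 were higher in F1 than in ACI, and in the fit of the compared arrays alone none was (Tagln M83107_at, adjusted p = 0.076). The Tpm1 X02412_at call between F1 and ACI (adjusted p = 0.0318) was lost without the same 4 arrays (0.23), with array weights (0.15), without a filter (0.066), with centring (0.058), with the muscle covariate (0.80) and without F1 3 (0.11), F1 5 (0.051), ACI 1 (0.061), ACI 2 (0.082) or ACI 3 (0.052). None was called between BUF/N and WF (2.22% in either direction) or between F1 and WF (15.2%).

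Against the mean of Cop and F344, 7 of 13 contractile probe sets were higher in F1 and 1 lower, where 17.4% of all tested probe sets were higher and 17.8% lower, and the median difference was 0.49 against 0.02 over all tested. The 3' to 5' ratio of the beta-actin control was 1.27 to 1.98 in F1 (median 1.58), 1.10 to 1.72 in Cop (median 1.17) and 1.23 to 1.48 in F344 (median 1.33), and its part in these differences was not tested. Actg2 was 2.26-fold higher (log2 difference 1.18, SE 0.18, adjusted p = 1.76e-05), with F1 arrays at 774, 686, 565, 944 and 819. Cnn1 was 1.87-fold higher (log2 difference 0.90, SE 0.15, adjusted p = 4.37e-05), Tagln M83107_g_at 1.63-fold (log2 difference 0.70, SE 0.12, adjusted p = 5.54e-05), with F1 arrays at 1569, 1518, 1340.2, 1599 and 1615, and Tagln M83107_at 1.35-fold (log2 difference 0.44, SE 0.12, adjusted p = 0.00652). Tpm1 M60666_s_at was 1.82-fold higher (log2 difference 0.86, SE 0.18, adjusted p = 0.000496) and Myh11 X16262_s_at 1.60-fold (log2 difference 0.68, SE 0.16, adjusted p = 0.00148). Acta2 rc_AA900769_s_at was 1.41-fold higher (log2 difference 0.49, SE 0.14, adjusted p = 0.00645), with F1 arrays at 4440.5, 5177, 3825, 4422 and 3815, and was not called under quantile normalization (adjusted p = 0.077). Tpm1 X02412_at was lower (log2 difference -2.53, SE 0.70, adjusted p = 0.00588), which had adjusted p = 0.072 without F1 2, F1 3, ACI 2 and ACI 5 and 0.997 with the skeletal muscle level as a covariate. None of these 8 calls was lost when any 1 of the 30 arrays was left out. With the muscle covariate Tagln M83107_at had adjusted p = 0.052. The 5 probe sets not called were Myh11 S61948_s_at, at 13.5 in F1 2 and 11.5 in F1 3 against 65.5 to 151 on the other F1 arrays, both coding-sequence probe sets of Acta2, and Tpm1 M34134_s_at and M15474cds_s_at.

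Compared with each parent singly, 6 of 13 contractile probe sets were higher in F1 than in Cop and also than in F344, where 9.31% of all tested probe sets were. They were Cnn1, Tagln M83107_g_at, Myh11 X16262_s_at, Actg2, Acta2 rc_AA900769_s_at and Tpm1 M60666_s_at, 1 for each gene. In 4 of 13 every F1 array was above all 10 parental arrays, which held for 4.19% of all tested probe sets: Cnn1, Tagln M83107_g_at, Acta2 rc_AA900769_s_at and Tpm1 M60666_s_at. Actg2 failed this through Cop 5 (606) against F1 3 (565), and Myh11 X16262_s_at through F1 3 (361). Relative to Cop the log2 difference of Cop minus F1 was -0.998 for Cnn1 and -0.54 for Acta2 (adjusted p = 0.0126). That Acta2 call was lost without Cop 1 (0.055) and under quantile normalization (0.11). In the fit of the compared arrays alone, the calls against Cop of Acta2 (0.059) and Myh11 X16262_s_at (0.091) were lost. Relative to F344 the log2 difference of F344 minus F1 was -1.48 for Actg2, -0.80 for Cnn1 and -0.45 for Acta2 (adjusted p = 0.0319). This Acta2 call was lost without F344 1 (0.053), F344 2 (0.056), F344 5 (0.073), F1 1 (0.051) or F1 2 (0.095), without a filter (0.053), under quantile normalization (0.18) and with the muscle covariate (0.17). With that covariate Tpm1 M60666_s_at was lost against F344 too (0.12), leaving 4 of the 6.

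Other cell type markers moved with these groups. Of 8 tested luminal epithelial markers (12 listed, 9 on the array), all 8 were lower in Cop than in the other inbred strains, among them Cldn3 (log2 difference -1.43), Epcam (-0.98) and Krt18 (-0.60). Of all tested probe sets 6.21% were lower in Cop. In WF 3 luminal markers were higher (3.37% of all tested probe sets), and in F1 6 were higher than in the parents (17.4% of all tested). Their summed signal ran from 2663 to 4882 in Cop, 4965 to 6935 in F344, 5309 to 8539 in F1, 4381 to 6919 in ACI, 7434 to 8971 in BUF/N and 7318 to 9168 in WF. Of the 5 basal markers tested (10 listed), Krt5, Krt14 and Itgb4 were lower in Cop (log2 differences of -0.95, -0.98 and -0.55) and higher in F1 than in the parents (1.08, 1.26 and 0.99), while Oxtr, the oxytocin receptor, and Mme passed neither contrast. Oxtr lay the other way in both, with log2 differences of 0.51 in Cop and -0.58 in F1. The basal sum ran from 1476 to 3284 in Cop, 2022 to 2947 in F344, 2902 to 7395 in F1, 2067 to 3853 in ACI, 2878 to 4457 in BUF/N and 3141 to 4593 in WF. In F344, where 5 contractile probe sets were lower, no luminal or basal marker was called (7.92% of all tested probe sets were lower). Their part in the contractile differences was not tested.

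Within groups, contractile probe sets and luminal markers also moved together. Over the 30 arrays after subtracting group means, Tagln M83107_g_at and the luminal sum gave r = 0.649 (permutation p = 0.00085, adjusted over 39 relations 0.00829) and rho = 0.588 (permutation p = 0.00232, adjusted 0.0176), with r = 0.659 without Cop 4 and F1 2. Actg2 gave r = 0.560 (permutation p = 0.00258, adjusted 0.0168) and rho = 0.574 (permutation p = 0.0029, adjusted 0.0176), with r = 0.544 without those arrays. Cnn1 gave r = 0.475 (permutation p = 0.00442, adjusted 0.0246) and rho = 0.529 (permutation p = 0.00316, adjusted 0.0176), with r = 0.491 without them. Myh11 X16262_s_at gave r = 0.223 (permutation p = 0.336, adjusted 0.485) and rho = 0.189 (permutation p = 0.39, adjusted 0.585), and Acta2 rc_AA900769_s_at r = -0.25 (permutation p = 0.311, adjusted 0.467) and rho = -0.23 (permutation p = 0.308, adjusted 0.501). A sum of this kind shares its array's scaling with the probe sets.

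Pericyte markers differed among themselves. Of the 5 tested, Kcnj8 (log2 difference 1.23) and Anpep (0.48) were higher and Cspg4 (-0.65) lower in WF, and Cspg4 was higher in Cop (0.91). In F344 Abcc9, a channel subunit of pericytes and smooth muscle, was lower (-1.57, adjusted p = 0.000241), with means of 68.7 in F344, 139.6 in Cop, 110.8 in F1, 213.5 in ACI, 182 in BUF/N and 195 in WF, and Anpep was higher (0.57). In ACI Anpep was lower (-0.98), and in F1 Kcnj8 (-1.02) and Cspg4 (-0.59) were lower than in the parents. The pericyte sum ran from 922 to 1203 in Cop (median 1077), 1039 to 1352 in F344 (1125), 737 to 1059 in F1 (879), 766 to 972 in ACI (898), 1018 to 1452 in BUF/N (1227) and 1295 to 1778 in WF (1441). From Cop and F344 through BUF/N to WF these medians were in the order of the Cnn1 means, and those of ACI and F1 were below all of them. Of 3 tested endothelial markers, Kdr was lower in WF, and Pecam1 and Kdr were lower in F1 than in the parents. Fibroblast markers were called in neither Cop nor WF, and 5 of 8, including Col1a1 (0.82) and Dcn (0.94), were higher in F1. Adipocyte markers were higher in Cop in 4 of 11 tested and lower in F1 in 6, and of 5 macrophage and leukocyte markers 1 was higher in Cop and 1 in F1. Skeletal muscle markers were called in no direction in Cop, while 7 of 14 were higher in F344 and 11 of 14 lower in F1 than in the parents. Of all tested probe sets 17.4% were higher and 17.8% lower in F1 than in the parents. The shares of all tested probe sets higher in Cop, higher in F344 or lower in WF were not counted.

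Calls among the partners of these genes in the contractile apparatus were few and went in both directions. Of 26 listed thick and thin filament partners and regulators, 14 were tested and 6 passed the F test (Myl6, Rock2, Ppp1r12a, Tpm4, Myl12a and Itpr1). Of all tested probe sets 51.8% passed it. None was lower in Cop, where 2 were higher, Rock2, a kinase that promotes contraction (log2 difference 0.80), and the regulatory light chain gene Myl12a (0.34). None was called in WF. The essential light chain gene Myl6 was lower in F344 (-0.51) and higher in F1 than in the parents (0.77), as was Tpm4 in F1 (0.53), whereas Rock2 (-0.71), Myl12a (-0.37) and Rhoa were lower there. Myl9, Cald1, Tpm2 and Cnn3 were among the 8 tested genes that did not pass the F test. Medians over the list were -0.00 in Cop, 0.07 in WF and 0.00 in F1. Of all tested probe sets 6.21% were lower in Cop, 3.37% higher in WF, and 17.4% higher and 17.8% lower in F1. Among 14 genes, the counts lower in Cop, higher in WF and called in F1 cannot be told apart from these shares. The share higher in Cop was not counted.

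Among 14 tested genes of the cytoskeleton and adhesion plaques (25 listed), 10 passed the F test, against 51.8% of all tested probe sets. The smallest adjusted p-values were those of Itga1, Itga8, Itga7, Actg1, Actb and Vim. Itga8, an integrin chain of smooth muscle, averaged 36.9 ± 7.09 in Cop, 41.5 ± 5.70 in F344, 69.5 ± 9.02 in F1, 92.1 ± 35.5 in ACI, 90.6 in BUF/N and 89.1 ± 18.2 in WF (SD, n = 5). It was lower in Cop (adjusted p = 0.000224) and in F344 (-0.78, adjusted p = 0.00401) and higher in F1 than in the parents (0.84, adjusted p = 0.00147). By these means and SDs, no Cop or F344 array exceeded the overall median signal used as the filter. Itga8 thus entered the tests only through groups other than Cop and F344, so its F test pass and these calls add no support. Itga7, a laminin-binding integrin chain of muscle, ran the other way, at 1471 ± 152 in Cop and 651 ± 269 in WF (log2 difference 0.91 in Cop and -0.66 in WF). The cytoplasmic actins Actg1 (0.78) and Actb (0.24, adjusted p = 0.0425) were higher in F1, and vimentin (-1.20) was lower. Vimentin was widely spread in F1, at 2041 ± 1169, against 4304 ± 824 in Cop and 3637 ± 257 in F344 (SD, n = 5). The array's 3' beta-actin control ran from 4433 to 12863 within F1. How far these calls rest on single F1 arrays was not tested. Of 8 tested receptors, channels and transcription factors of smooth muscle (16 listed, 10 on the array), the 4 that passed the F test were Agtr1a, Cacna1c, Kcnmb1 and Gucy1b1. None of the 8 was called in Cop or WF, and in F1 only the angiotensin receptor gene Agtr1a was (-0.64). Counts this small among 8 genes cannot be told apart from the shares of all tested probe sets given above.

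By the likeness of their variation within groups (Pearson's r of log2 signal over the 30 arrays after subtracting group means, given as a description over probe sets that share arrays), the members had different neighbours. Cnn1 was most like Cd14 (0.71), Junb (0.68), Igfbp5 (0.66), Gnb5 (0.66) and Hes1 (0.65). Tagln was nearest to Bex3 (0.62), Farsa (0.61), Krt18 (0.60), P2rx4 (0.59) and Csrp1 (0.59), and Actg2 to Pcm1 (0.65), Prim1 (0.64), Cd24 (0.64), Mfsd6 (0.64) and P2rx4 (0.63). For Myh11 the nearest were Add3 (0.62), Anxa1 (0.61), Synj1 (0.59), Efemp1 (0.58) and Flot1 (0.57), 3 of which had r below 0 over the 30 arrays without the subtraction. Acta2 rc_AA900769_s_at was nearest to Myh1 (0.81), Rpl21 (0.80), Fam216a (0.78), Hip1 (0.76) and Renbp (0.76). This probe set read 5236 in ACI 2 and 5344 in ACI 5, against 2847 to 3210 on the other ACI arrays. The part of those arrays in these r values was not tested. For Myh1 the r was 0.16 without the subtraction. With the summed skeletal muscle signal this Acta2 probe set gave r = -0.0037 within groups. Tpm1 M34134_s_at was nearest to the skeletal muscle genes Ampd1 (0.84), Myl1 (0.83) and Cox6a2 (0.83 and, on a second probe set, 0.77) and to Foxe3 (0.79). Among the contractile probe sets themselves, Tagln M83107_g_at and Actg2 gave 0.680, Tagln M83107_g_at and Cnn1 0.345, and Acta2 rc_AA900769_s_at between -0.11 and 0.30 with Cnn1, Actg2, Myh11 X16262_s_at and both Tagln probe sets.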

How the data were processed

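Affymetrix rat arrays, 32 in all, measured total RNA of normal mammary gland, from 5 µg of RNA per the labels. The deposited values are signal intensity on a linear scale, computed by the authors with Microarray Suite 5.0 per the labels; further steps are not given in the sources used here. Trimmed means of 250.3 to 250.4 (2% at each end) on all arrays show 1 common scaling, and array medians ran from 65.8 to 102. Signals under the 25th percentile (18.3) were set to it, log2 transformed and fitted with limma 3.58.1 in R 4.3.3 as 6 group means with a variance trend, without the 2 pools. Tests used Benjamini-Hochberg adjusted p-values within a contrast at 0.05. Symbols came from GEO's annotation of the array, which can be old, updated by identifier. Correlations used 100000 permutations within groups. The fit was tested on simulated data.

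The genes, marker and partner lists and alternatives were chosen with earlier results of these data known. All member probe sets are named, up to 6 partner genes per list by the F test, up to 3 markers per cell type by signal (others named where they moved were chosen after their values were seen), and the 5 probe sets most like each gene's brightest one. The alternatives were other floors, an offset, other filters, quantile normalization, centring, a replicate block, array weights, no trend, added pools, left-out arrays, pairwise fits and, chosen after seeing the data, the skeletal muscle level as a covariate. The number of arrays limits the precision.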

Additional observations from a re-analysis of the deposited data

Results flagged for a closer look

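Within groups of 5 arrays, 5 of 85 combinations of probe set and group held an array far from the other 4, by Dixon's test at 95%, and chance gives about 1 in 20. Tagln M83107_g_at was highest in Cop 5, at 1314, against 741 to 892 on the other Cop arrays. Tpm1 M15474cds_s_at was highest in Cop 1, at 2043, against 758 to 996. Tpm1 X02412_at was highest in F344 5, at 1899, against 826 to 1129.6, and in WF 2, at 863, against 59.5 to 202. Tpm1 rc_AI144767_s_at was lowest in F344 5, at 6.5, against 18.7 to 22.5, all of these near the floor of 18.3. F344 5 and WF 2 had the highest summed skeletal muscle signals of their groups, 28534 and 10230.4.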

How the results depend on the processing

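The totals of contractile calls over all contrasts of a kind stayed within 1.5 times of their values under every alternative run, while counts within single contrasts moved more, as given beside them. Counts of lower probe sets ran, over the settings other than leaving out 1 array, from 2 to 6 for Cop against ACI (main 5), 4 to 8 for Cop against F1 (7), 1 to 5 for F344 against ACI (2), 2 to 4 for ACI against WF (4) and 2 to 8 for F344 against the other 4 (5). The 6 higher probe sets of WF against the other 4 numbered 6 in every fit. The F test gave 10 probe sets, and 9 to 11 under other settings (10 to 11 leaving out 1 array). Calls over the 15 pairs numbered 59, with 53 (muscle covariate) to 74 (array weights), and 54 to 66 leaving out 1 array. Strains against the other 4 gave 22 calls, with 18 (centring) to 30 (array weights) and 19 to 24, and F1 against its parents 8, with 6 to 10 and 8 to 9. The partner genes gave 20, with 18 to 27 and 19 to 23. Of 89 single calls, 67 were kept in all 30 fits without 1 array and 52 in every setting. Quantile normalization lost 7 and centring 15. Centring moved the median difference of all genes by up to 0.31 (F1 minus ACI), and by 0.10 for Cop and 0.14 for F344 against the other 4. With the replicate number as a replicate block, 57 pair calls and 10 F tests passed, and 2 of the 89 were lost. The numbers were not taken to pair arrays, since deviations of same-numbered arrays correlated between -0.45 and 0.40 (median -0.016). With the skeletal muscle level as a covariate 13 calls were lost, and Tpm1 X02412_at, F344 minus F1, reversed from 3.15 to -0.0608 (adjusted p = 0.93).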

Other observations

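The 4 probe sets annotated to both Acta2 and Actc1 were left out above because their signal cannot be given to 1 gene. X80130cds_f_at averaged 351 ± 20.3 in Cop, 317 ± 3.07 in F344, 235 ± 54.9 in F1, 329 ± 51.4 in ACI, 296 ± 88.8 in BUF/N and 314 ± 37.8 in WF (SD, n = 5), and X80130cds_i_at 105 ± 10.04, 80.7 ± 16.4, 92.1 ± 24.6, 144 ± 39.0, 142 ± 5.10 and 131 ± 34.8 in the same groups. The other 2, rc_AI104567_at and rc_AI104567_g_at, had means under 20 in every group, around or under the floor of 18.3.

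The Cop and F344 pools, 1 array each, read 889 and 1117 for Tagln M83107_g_at, 417 and 399 for Myh11 X16262_s_at, 2916 and 2819 for Acta2 rc_AA900769_s_at, 860 and 928 for Tpm1 M60666_s_at, and 796 and 1211 for Tpm1 X02412_at. Each value lay within the range of the 5 arrays of its strain, except Acta2 in F344, where the lowest of the 5 arrays read 2904. For Cnn1, the Cop pool (301) was also below the lowest of its 5 arrays (341). For Myh11 S61948_s_at, the Cop pool (45.5) was above the highest of its 5 arrays (31.1).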
